A study of Mus musculus with 6 samples.

Results

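The sodium-potassium pump was followed through 7 genes, the beta subunit genes Atp1b1, Atp1b2 and Atp1b3 and the FXYD genes Fxyd1, Fxyd2, Fxyd4 and Fxyd5. Their probes were taken by gene symbol, the genes having been chosen with earlier results of these data known, and they had 13 of the 34885 probes with a single symbol, out of 19057 genes named on the array. RNA came from the kidney cortex of 6 male C57BL6 mice, 12 weeks old, with 1 Illumina MouseWG-6 v2 bead array per mouse. Captopril was given to 3 mice for 7 days, starting at 11 weeks of age, at a daily dose of 10 mg/kg mixed into their drinking water, and the other 3 mice are labelled as controls. Captopril inhibits the angiotensin-converting enzyme, and the comparison asks which cortical transcripts differ under that inhibition. No genetic change is given for either group. Whole cortex was measured, so fewer cells of a type and less RNA per cell cannot be told apart.

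The pump is the engine of sodium reabsorption in the tubule. It sits in the basolateral membrane, where a catalytic alpha subunit moves sodium out of the cell and potassium in, and a glycosylated beta subunit carries the alpha subunit to the membrane. Small FXYD proteins attach to the complex and set its affinity for the ions in a tissue-specific way. Angiotensin II and aldosterone, the hormones downstream of the inhibited enzyme, are known to stimulate the pump.

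In the cortex, 6 of the 7 genes were detected on all 6 arrays by at least 1 probe, and Fxyd1 was at the detection limit. Of the 11 member probes bright enough to test, which belong to 6 genes, 0 passed an adjusted p of 0.05 in limma, and likewise 0 lay under 0.05 before adjustment. Over all 16500 probes tested, 3 passed (0.0182%), all lower in captopril cortex, and 4.28% had an unadjusted p under 0.05. In 0 of the 11 member probes did the 2 groups fail to overlap, against 8.69% of all tested probes. The 95% intervals of the members all included 0, and the widest reached from a fold of 0.526 to 1.63 (Fxyd5 ILMN_1235493). With 3 arrays per group, the values of that probe leave changes within those bounds possible. The interval is not a limit of detection. The adjusted p of the members lay between 0.995 and 0.999 in limma. Their median absolute log2 difference was 0.11, beside 0.12 over all tested probes. Values below are log2 intensities after background correction and quantile normalization, and every difference is captopril minus control. A probe's brightness also reflects how well it binds, so levels of different probes are not compared and no order of abundance between isoforms is given.

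The arrays were alike, with 16372 to 17312 probes detected per array (36.2% to 38.2%). Segment markers were read beside the tissue label. No list was of medullary markers, so cortex was not told apart from whole kidney. Of 10 proximal tubule markers 9 were tested, among them the endocytic receptor gene Lrp2, and all 7 thick ascending limb markers were tested, among them Umod. Of 7 skeletal and cardiac muscle markers 0 were tested, and of 6 nerve and glial markers only Mbp was tested. Adipocyte markers varied from mouse to mouse, with a summed level of 110 to 247 in control and 120 to 442 in captopril cortex on the linear scale over 4 tested genes. Leukocyte markers summed to 3701 to 4051 in control and 3682 to 5337 in captopril cortex, and all 7 tested had higher mean values, with 0 past the threshold.

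Atp1b1 encodes the beta subunit that pairs with the alpha subunit along the nephron. Its promoter is shown because this beta subunit gene is known to respond to aldosterone, which angiotensin II stimulates. The sequence is the 250 bases before the gene's start, chr1:164458356-164458605 on the minus strand of GRCm38.p6, from RefSeq, written 5′ to 3′ with the matches listed next in capitals.
Atp1b1: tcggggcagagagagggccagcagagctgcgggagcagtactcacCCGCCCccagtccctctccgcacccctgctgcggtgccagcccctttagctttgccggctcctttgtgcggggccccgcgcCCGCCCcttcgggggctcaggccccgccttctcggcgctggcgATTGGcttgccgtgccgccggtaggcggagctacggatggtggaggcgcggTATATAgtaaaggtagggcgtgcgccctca
Motifs were searched as exact letters on both strands. The window held 1 TATATA, which 5.2% of the 32851 RefSeq promoter windows of the same length hold, 0 TATAAA (12.4%) and 1 CCAAT (33.8%, here as its reverse complement). It held 2 matches to the GC box GGGCGG (32.7%), also as the reverse complement. AGAACA, a hexamer bound by steroid receptors, was found 0 times in this window and 0 times in the Fxyd4 window, against 16.1% of all windows. These searched motifs do not overlap one another in the letters found.

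The Atp1b1 probe ILMN_2767615 was detected on all 6 arrays at a raw intensity of 24610 ± 2325 in control cortex and 23449 ± 3149 under captopril (SD, 3 arrays per group). After normalization control arrays 1 to 3 stood at 14.54, 14.62 and 14.68, and captopril arrays 1 to 3 at 14.46, 14.54 and 14.46. All captopril arrays lay at or below the lowest control array, which captopril array 2 equalled. The equal values follow from quantile normalization, which gives each rank 1 value. The probe ranked 33, 28 and 24 from the brightest on the control arrays and 37, 33 and 37 on the captopril arrays, out of 45281 probes. Its log2 difference was -0.12 (SE 0.12, 95% interval -0.40 to 0.15) with an adjusted p of 0.995 in limma. On the fold scale that interval runs from 0.757 to 1.11. In the authors' processed values the difference was -0.13 (SE 0.05) with an unadjusted p of 0.0368 and an adjusted p of 0.993 in limma. Scaled by the median in place of quantiles it was -0.10 (SE 0.20), beside a median of 0.08 over all tested probes.

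Atp1b2 encodes a beta subunit best known from glia, where it was described as an adhesion molecule. Its probe ILMN_2602902 was detected on all 6 arrays. Control arrays 1 to 3 gave 7.11, 7.56 and 7.22, and captopril arrays 1 to 3 gave 6.79, 7.31 and 7.27. Captopril array 1 was the lowest and the other captopril arrays fell within the control range. The control mean was 7.29 ± 0.23 and the captopril mean 7.12 ± 0.29 (SD, n = 3). The means differed by -0.17 (SE 0.19, with a 95% interval from -0.61 to 0.26), for an adjusted p of 0.995 in limma. Without captopril array 1 it was -0.01. Mbp, a myelin gene and the only nerve or glial marker tested, differed by -0.12 (SE 0.17), and its part in the Atp1b2 level was not tested.

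Atp1b3 encodes a beta subunit found in many tissues. Its probe ILMN_1240702 gave 10.54, 10.54 and 10.64 on the control arrays and 10.90, 10.64 and 10.29 on captopril arrays 1 to 3. The captopril arrays therefore held both the highest and the lowest value of all 6. The control mean was 10.57 ± 0.06 and the captopril mean 10.61 ± 0.31 (SD, n = 3). The log2 difference of 0.04 (SE 0.17, 95% interval -0.35 to 0.43) had an adjusted p of 0.995 in limma, and it turned to -0.11 without captopril array 1 and stood at 0.20 without captopril array 3.

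**Figure D1:**
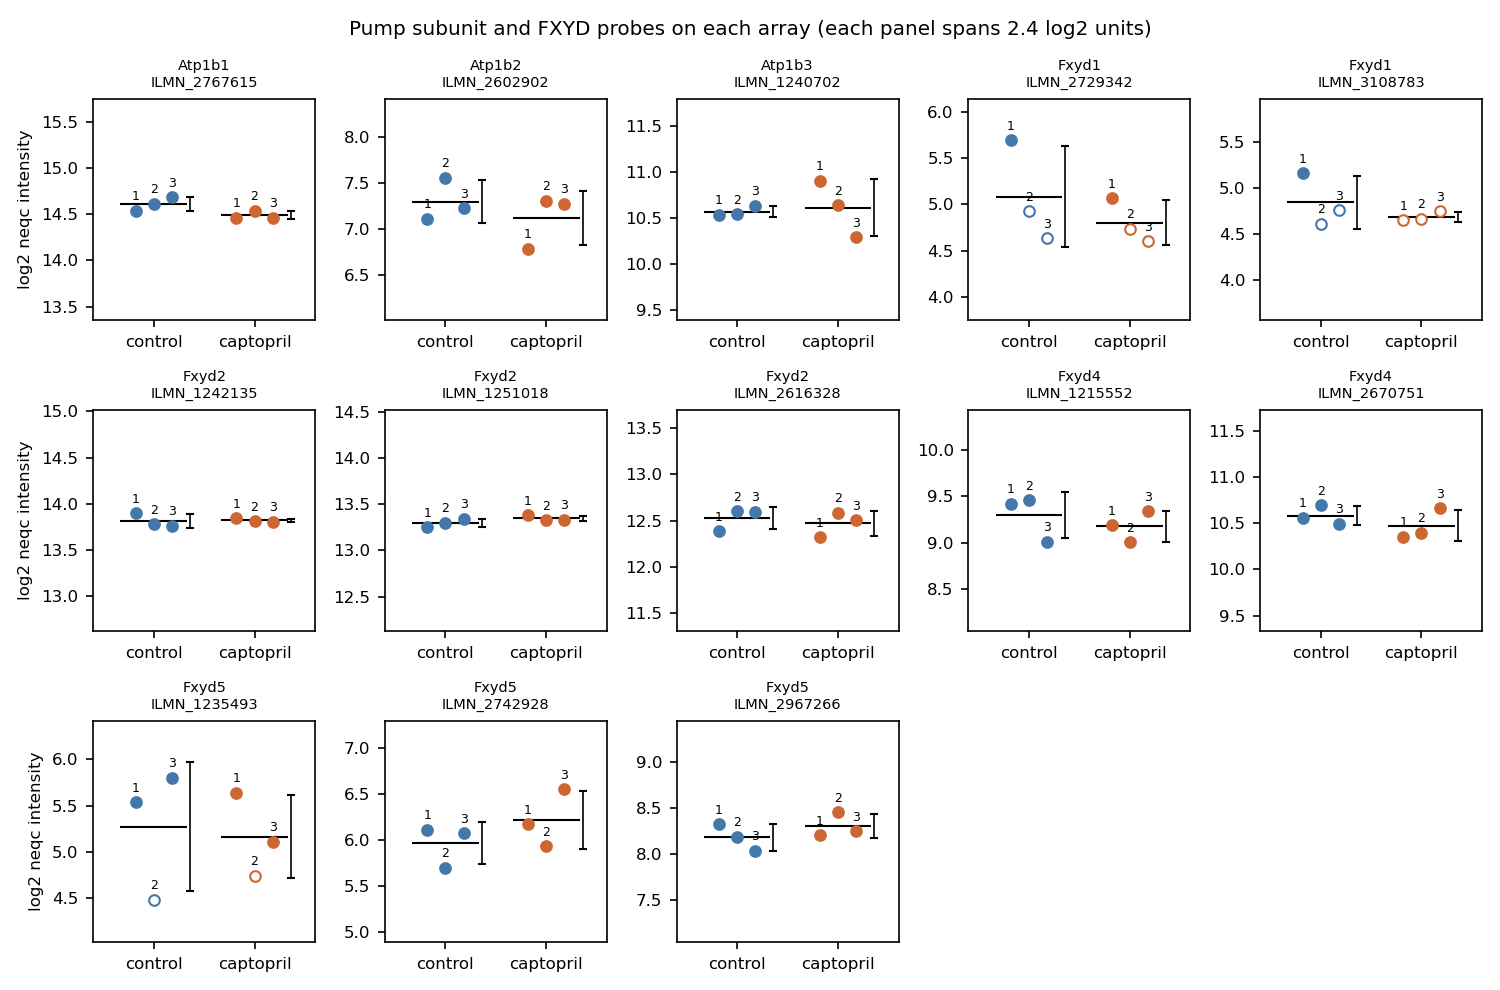
Log2 normalized intensity of each of the 13 member probes in control (blue) and captopril (orange) cortex, 1 point per array with its replicate number. Filled points were detected above negative controls and open points were not. Horizontal lines are group means and bars are SD. The Fxyd2 and Atp1b1 points lie close together, whereas captopril values of Atp1b3 run from 10.29 to 10.90.

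Fxyd2 encodes the gamma subunit, the FXYD protein of the kidney pump, which lowers its affinity for sodium. It had 3 probes, and the annotation ties ILMN_1242135 to transcript NM_007503 and ILMN_1251018 and ILMN_2616328 to NM_052823. Raw intensities of ILMN_1242135 averaged 13886 ± 1989 in control cortex and 15169 ± 2542 under captopril (SD, n = 3). After normalization that probe gave 13.90, 13.78 and 13.76 on the control arrays and 13.84, 13.81 and 13.81 on the captopril arrays. The captopril values lay inside the control range. Its log2 difference was 0.01 (SE 0.12, 95% interval -0.27 to 0.28) with an adjusted p of 0.999 in limma. ILMN_1251018 gave 13.25, 13.30 and 13.34 on the control arrays and 13.38, 13.33 and 13.33 on the captopril arrays, a log2 difference of 0.05 (SE 0.12, 95% interval -0.22 to 0.32). ILMN_2616328 gave 12.39, 12.60 and 12.60 in control and 12.32, 12.59 and 12.50 in captopril cortex, a log2 difference of -0.06 (SE 0.14, 95% interval -0.38 to 0.25). The probes thus straddled 0, and on the fold scale their intervals together run from 0.771 to 1.25.

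The Fxyd2 probes were also set against each other by raw intensities within each array, which needs no normalization between arrays. Whether a probe binds only its annotated transcript was not tested, so these ratios are not a measure of transcript balance. The log2 ratio of ILMN_1242135 to ILMN_1251018 was 0.62, 0.50 and 0.41 on the control arrays and 0.45, 0.49 and 0.44 on the captopril arrays. Its group difference of -0.05 did not exceed the spread (exact permutation p = 0.6, two-sided). Against ILMN_2616328 the ratio of ILMN_1242135 differed by 0.06 (exact permutation p = 0.6). Between the probes annotated to NM_052823 the ratio differed by 0.11 (exact permutation p = 0.5), more in size than in both comparisons between annotated transcripts. Permuting 3 against 3 arrays cannot give a p below 0.1. The size of such a ratio within an array depends on the probes and has no meaning of its own.

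Fxyd4 encodes the corticosteroid hormone-induced factor, a collecting duct protein that raises the pump's affinity for sodium. Its brighter probe ILMN_2670751 gave 10.56, 10.70 and 10.49 on the control arrays and 10.35, 10.40 and 10.67 on the captopril arrays. Captopril arrays 1 and 2 lay below all controls, and captopril array 3 lay within the control range. The log2 difference was -0.11 (SE 0.14, 95% interval -0.43 to 0.21) with an adjusted p of 0.995 in limma. The dimmer probe ILMN_1215552 gave 9.42, 9.46 and 9.01 in control and 9.19, 9.002 and 9.34 in captopril cortex, a log2 difference of -0.12 (SE 0.17, 95% interval -0.51 to 0.26). The probes pointed the same way in size, and the log2 ratio between their raw intensities was -1.16 ± 0.16 in control cortex and -1.16 ± 0.10 under captopril (SD, n = 3). Both lay at negative values in every alternative tried, the highest being -0.03. Of 8 collecting duct principal cell markers 7 were tested, with a summed level of 6164 to 7091 in control and 6074 to 6461 in captopril cortex. Of those 7 markers, 5 had lower and 2 had higher mean values in captopril cortex, with a median difference of -0.03 and 0 past the threshold, and their part in the Fxyd4 values was not tested. The water channel gene Aqp2, first of that list, differed by 0.01 (SE 0.15).

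Fxyd5 encodes dysadherin, an FXYD protein of epithelia and leukocytes that also affects cell adhesion. The brightest of its 3 probes, ILMN_2967266, gave 8.33, 8.19 and 8.04 on the control arrays and 8.21, 8.45 and 8.25 on the captopril arrays. Only captopril array 2 exceeded all controls. The log2 difference was 0.12 (SE 0.14, 95% interval -0.20 to 0.44) with an adjusted p of 0.995 in limma. ILMN_2742928 gave 6.12, 5.70 and 6.08 in control and 6.17, 5.94 and 6.55 in captopril cortex. Captopril arrays 1 and 3 lay above all controls, and captopril array 2 did not. Its log2 difference of 0.26 (SE 0.19, 95% interval -0.19 to 0.70) was the largest in size among the 11 member probes and was 0.05 in the authors' processed values. In those values Atp1b1, at -0.13, was larger in size. Without captopril array 3 the ILMN_2742928 difference was 0.09, and Atp1b2 at -0.25 was larger in size. Without control array 2 it was 0.12 and without captopril array 1 it was 0.28. The remaining Fxyd5 probe ILMN_1235493 was larger in size in both fits, at -0.51 and -0.35. Without captopril array 2 the ILMN_2742928 difference was 0.40. ILMN_1235493 was detected on 4 of 6 arrays and missed on array 2 of each group. It gave 5.54, 4.48 and 5.80 in control and 5.64, 4.74 and 5.11 in captopril cortex, a log2 difference of -0.11 (SE 0.36, 95% interval -0.93 to 0.71). The leukocyte markers given above, which had a median difference of 0.24, had the same sign in group means as the brighter Fxyd5 probes. Among the captopril arrays, every tested leukocyte marker was highest on array 2. ILMN_2967266 was highest there too, whereas ILMN_2742928 was lowest there. On captopril array 3, C1qa, C1qb, C1qc and Lyz2 had their lowest values of all 6 arrays, whereas Cd74, Coro1a and Csf1r did not. There ILMN_2742928 was highest, at 6.55, and ILMN_2967266 stood at 8.25, above its 8.21 on captopril array 1. The part of leukocytes in the Fxyd5 values was not tested.

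Fxyd1 encodes phospholemman, the FXYD protein of heart and skeletal muscle. Neither of its probes was tested. ILMN_2729342 was detected on control array 1 and captopril array 1, and gave 5.69, 4.93 and 4.63 in control and 5.07, 4.74 and 4.60 in captopril cortex. ILMN_3108783 was detected on control array 1 alone, with 5.16, 4.61 and 4.76 in control and 4.65, 4.66 and 4.75 in captopril cortex. Replicate 1 of each group was thus above background by the first probe, and the other arrays were not. No fold is given for either probe, since most arrays lay at background.

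**Figure D2:**
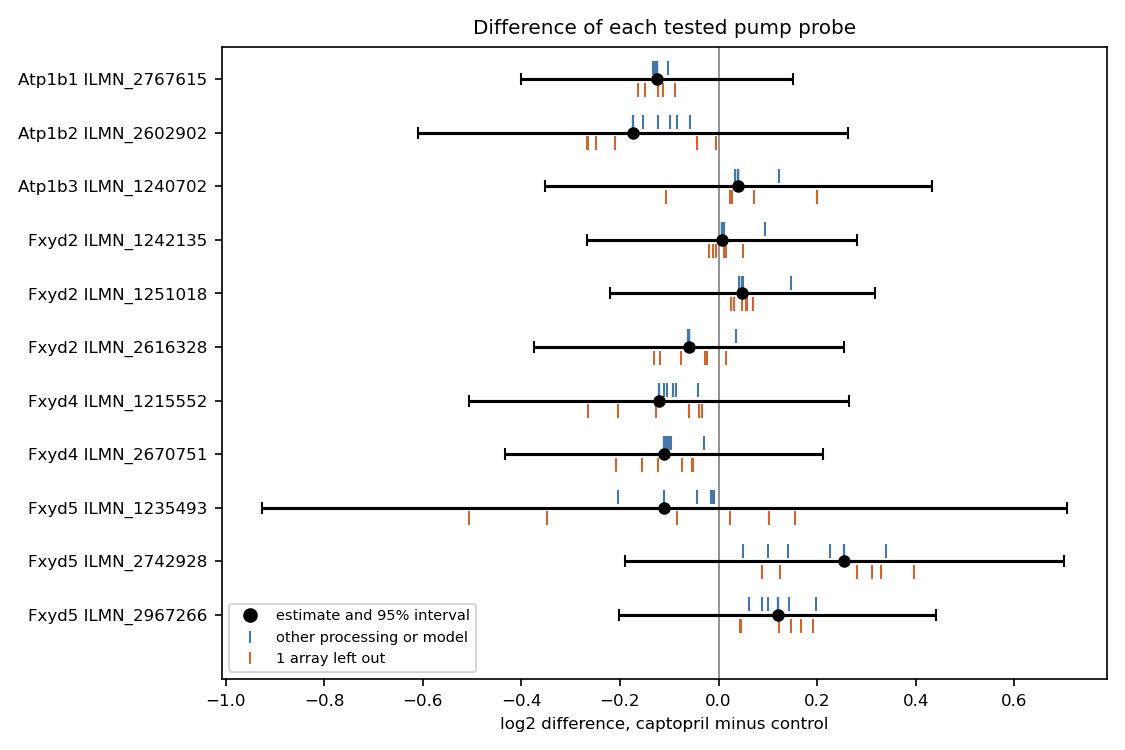
Log2 difference (captopril minus control) of each of the 11 tested member probes. Black points and bars are the limma estimate with its 95% interval, blue ticks the other processing or model choices and orange ticks the fits with 1 array left out. Every interval includes 0, and the widest is that of Fxyd5 ILMN_1235493, from -0.93 to 0.71.

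**Figure D3:**
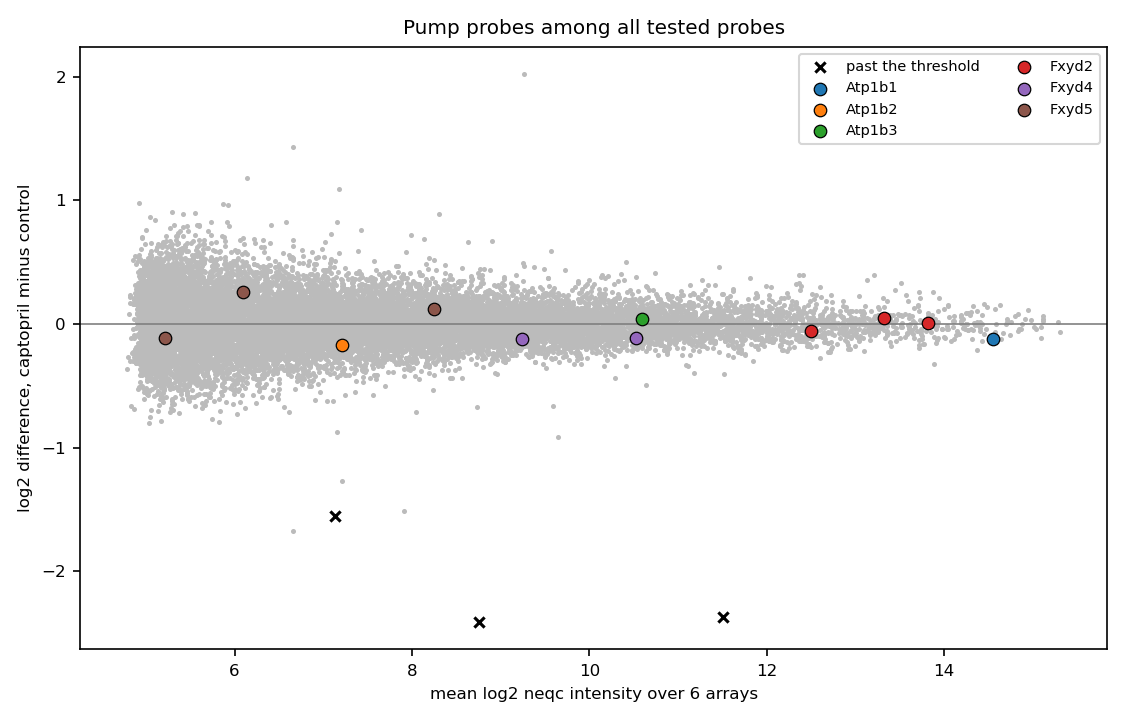
Log2 difference (captopril minus control) against mean log2 normalized intensity over 6 arrays for the 16500 tested probes in grey. Coloured points are the 11 member probes and crosses the 3 probes past the threshold. The member probes lie inside the grey cloud at every brightness, between -0.17 and 0.26.

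The members were also compared with each other from mouse to mouse, using the brightest probe of each of the 6 genes detected on all arrays. Among 15 pairs, Atp1b3 and Fxyd4 had the strongest relation, running in opposite directions. Pearson's r was -0.82 (exact permutation p = 0.0264, adjusted over the pairs 0.396) and Spearman's rho -0.83 (exact permutation p = 0.0583, adjusted 0.833), over 6 arrays. Without captopril arrays 1 and 3, which lie farthest from the Atp1b3 median, r was -0.83 over the few arrays left. The dimmer Fxyd4 probe ILMN_1215552 was not used in these pairs. On captopril array 1, where Atp1b3 was highest, that probe stood at 9.19, above its 9.002 on captopril array 2. On captopril array 3, where Atp1b3 was lowest, it stood at 9.34, its highest value among the captopril arrays. Its correlation with Atp1b3 over the 6 arrays was not computed. Atp1b2 and Fxyd4 had r = 0.71 (rho 0.60, exact permutation p = 0.106 and 0.242), which became -0.25 without control array 2 and captopril array 1. Atp1b1 and Fxyd2 had r = -0.57 (rho -0.62, exact permutation p = 0.239 and 0.222), and 0.43 without control arrays 2 and 3. No pair passed after adjustment, where the smallest value was 0.396. All of these arrays share their normalization, and the 2 groups are pooled in them.

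Outside the family, 8304 named genes detected on all arrays were ranked by their correlation with each member over the 6 arrays. For Atp1b1 the highest were Fam53b (r = 0.998, rho 0.97, exact permutation p = 0.00556) and the ribosomal protein gene Rpl38 (r = 0.992). For Fxyd2 they were the superoxide dismutase gene Sod1 (r = 0.991) and Atxn1 (r = 0.988), and for Fxyd4 the chaperone gene Fkbp8 (r = 0.993) and Mier2 (r = 0.987). Atp1b3 was most like Igfbp5, which encodes a binding protein of insulin-like growth factors (r = 0.998), and Gnpda1 (r = 0.989). Atp1b2 was most like Rhbdd2 (r = 0.986) and Trub1 (r = 0.983), and Fxyd5 most like H2ac15 (r = 0.976) and the cohesin gene Rec8 (r = 0.973). Adjusted over the 8304 genes, the permutation p of these ran from 0.441 to 0.923. Left without the 2 arrays farthest from the member's median, r ran from 0.805 to 1.00.

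Other genes of renal sodium transport were read from 4 lists. Of their 34 genes, 30 had a probe with a name, and 27 could be tested, each at its brightest probe. In limma 0 of the 27 rose and 0 fell past the threshold, as did 0 of 9718 genes overall (0%). An unadjusted p under 0.05 was found for 1 of the 27, against 3.69% of all genes. In 2 of the 27 the groups did not overlap, against 8.73% of all genes.

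Among the other FXYD and pump genes, Fxyd6 differed by 0.05 (SE 0.16) and Fxyd3, detected on 3 of 6 arrays, by -0.18 (SE 0.22), while Atp1b4 and Fxyd7 were too dim to be tested. The 10 genes of apical sodium entry had a median of 0.01, beside -0.003 over all genes. Scnn1a, the alpha subunit of the epithelial sodium channel, differed by 0.28 (SE 0.17), from 9.97 ± 0.23 to 10.25 ± 0.20 (SD, n = 3). The glucose cotransporter gene Slc5a2 differed by 0.21 (SE 0.17). Slc12a1, the bumetanide-sensitive cotransporter gene of the thick ascending limb, differed by -0.22 (SE 0.15) at its brightest probe. Of its other 4 probes, the bright ones gave -0.20 (SE 0.13) and -0.01 (SE 0.17). The dim ones gave 0.26 (SE 0.16) and, detected on 4 of 6 arrays, -0.03 (SE 0.20).

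Of 8 genes of basolateral ion exit 5 were tested, with a median of -0.02 that turned to 0.18 without captopril array 2, to 0.13 without control array 1 and to 0.02 without control array 3. The sodium-calcium exchanger gene Slc8a1 differed by 0.33 (SE 0.18) and by 0.23 at its other probe. The potassium channel genes Kcnj16 and Kcnj15 differed by -0.08 (SE 0.12) and 0.06 (SE 0.16), and the other Kcnj15 probe gave 0.39 (SE 0.35). The 10 tested regulators and partners had a median of 0.01. Sgk1, the aldosterone-induced kinase that raises pump and channel abundance, gave 11.13, 11.14 and 11.23 on the control arrays and 11.52, 11.40 and 11.42 on the captopril arrays. Its groups did not overlap, and the log2 difference of 0.28 (SE 0.12) had an unadjusted p of 0.0482 and an adjusted p of 0.995 in limma. The salt-inducible kinase gene Sik1, also known to act on the pump, gave 6.82, 7.01 and 7.26 in control and 6.79, 6.74 and 6.79 in captopril cortex. Its groups did not overlap, with a log2 difference of -0.26 (SE 0.15) and an adjusted p of 0.995 in limma. Prkce, a protein kinase C gene, differed by -0.30 (SE 0.17). The mineralocorticoid receptor gene Nr3c2 was detected on 0 arrays by its probe.

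**Figure D4:**
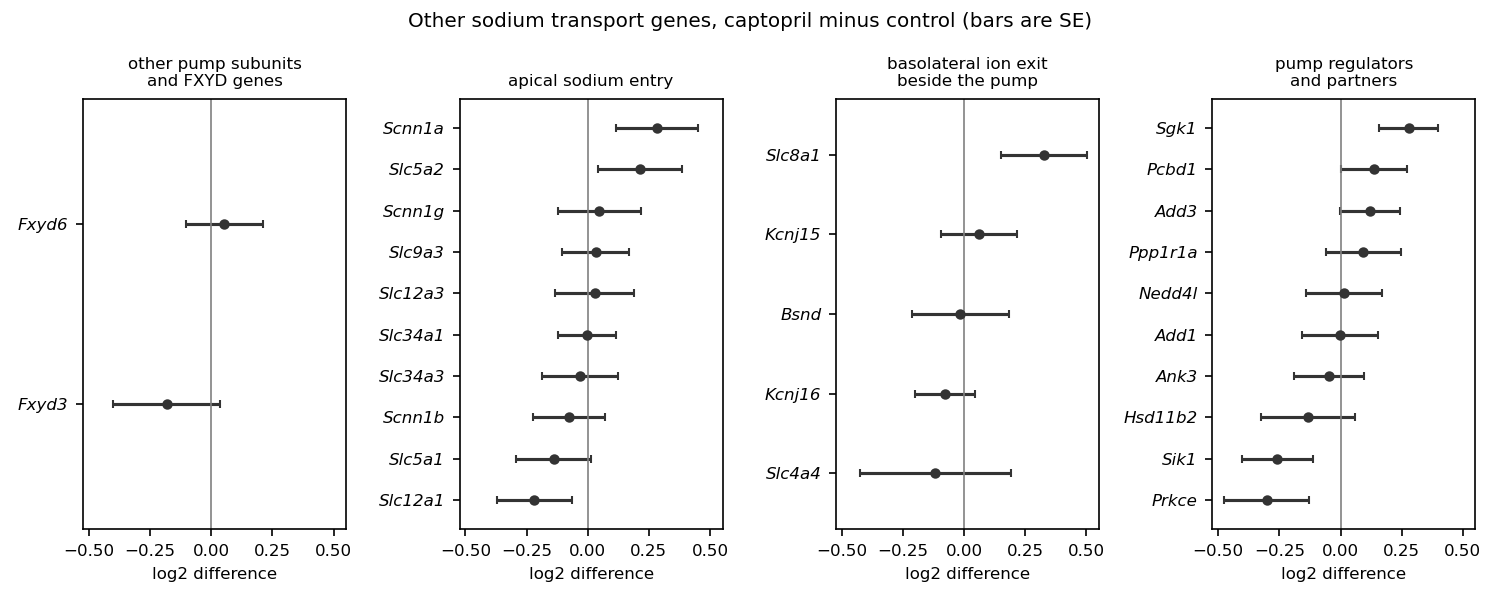
Log2 difference (captopril minus control) of the 27 tested genes in 4 lists of renal sodium transport, at each gene's brightest probe, with bars of SE. Differences ran from -0.30 for Prkce to 0.33 for Slc8a1, and none passed the threshold.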

How the data were processed

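Bead-averaged signal intensity was deposited on a linear scale for 45281 probes per array, not normalized between arrays (medians 111 to 147), per the file headers. A detection p-value was deposited beside each signal, per the file headers. The authors' processed values are on a log2-like scale with 1 shared distribution, made with lumi per the submitters' processing notes; version and transform are not given in those sources. Each processed column ranked probes as its array did (rank correlation 1).

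limma 3.58.1 (R 4.3.3) was used. Background was corrected by neqc from the detection p-values with an offset of 16, then quantile normalization and log2. Probes with detection p under 0.05 on at least 3 of 6 arrays were tested with lmFit and eBayes, two-sided, without covariates, and adjusted by Benjamini-Hochberg over 16500 probes at 0.05. The procedure was tested on simulated data with added effects. Those effects were larger than the member differences in the fit as designed, so recovery of changes that small was not tested. Arrays were grouped by title, and each is a separate mouse. Precision is limited by having 3 arrays per group.

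Probe symbols came from GEO's platform annotation. Members and gene lists were chosen with earlier results of these data known. The text names every member, the 3 tested genes of smallest unadjusted p in each transport list (Fxyd3 and Fxyd6 in the list with 2 tested), and the 2 genes most correlated with each member; Atp1b4, Fxyd7, Nr3c2 and the markers were named outside that rule. Promoters of 5 of the 7 members were in the RefSeq table. Some genes of the first transport list are not reported here.

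Alternatives were no background correction, normexp at offset 50, median scaling, the authors' values, testing all probes, testing those with detection p under 0.01 on all 6, trend and robust eBayes, weights per array, a replicate block, each array left out, other thresholds and probe averaging. A slide block was not run, since the headers used here give no slide.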

Additional observations from a re-analysis of the deposited data

How the results depend on the processing

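Under every alternative run, 0 member probes passed the threshold in limma, including an adjusted p under 0.10 and, in the fit as designed, an unadjusted p under 0.05. In the authors' processed values 1 member probe, Atp1b1, had an unadjusted p under 0.05. Over the whole array 3 probes passed, against 5 when eBayes used trend and robust options, 0 under the replicate block, and 2 in each fit that left out 1 array. After quantile normalization, deviations from the group means correlated at 0.004, 0.01 and 0.04 between arrays with the same replicate number. That step gives all arrays 1 shared distribution. Before it, raw median intensities were alike within replicate 1 (142 in control and 147 in captopril cortex), replicate 2 (111 and 119) and replicate 3 (129 and 138). Whether the numbers mark a shared batch was not tested. With the block the smallest member adjusted p was 0.961 in limma. Median scaling moved the median log2 difference of all tested probes to 0.08. It turned Fxyd2 ILMN_2616328 from -0.06 to 0.034, which lies below that median. With 1 array left out, 4 small differences changed sign, with ranges of -0.11 to 0.20 for Atp1b3, -0.019 to 0.050 for Fxyd2 ILMN_1242135, -0.13 to 0.014 for Fxyd2 ILMN_2616328 and -0.51 to 0.15 for Fxyd5 ILMN_1235493. The cause of these moves was not tested. The other 7 tested member probes kept their direction in every alternative run. Signal near background limits Fxyd1 and Fxyd5 ILMN_1235493.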
